A study of Mus musculus with 14 samples.

Results

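Of 9 knockout liver tumours in a set of 14 mouse libraries, 3 had a hepatocyte gene level inside the range of the 5 wild-type (WT) tumours. These 3, CDK18KO 1, CDK18KO 3 and DKO 3, were compared with WT 1 to 5, which gives 8 libraries of the 14. The libraries were chosen on a measured value, the mean log2 CPM of 34 hepatocyte genes, so the level of hepatocyte genes is described here without a test. CPM are counts scaled to a common library total, with TMM factors over all 14 libraries. The question was which differences between genotypes are seen where the tumours hold like amounts of hepatocyte messenger RNA.

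Per the labels, every tumour was driven by c-Myc and β-catenin of mouse, carried on plasmids given by hydrodynamic injection, in which a fast, large-volume tail-vein injection carries DNA into hepatocytes. Tumours were taken at 15 mm, at distress or at 8 weeks after injection. WT tumours carry no named knockout, CDK18KO tumours lack Cdk18 and the DKO tumours lack Cdk16 and Cdk18. The protocols name floxed Cdk16 alleles with Cre-ERT2, a tamoxifen-inducible recombinase whose promoter is not named, and Cre-ERT2 controls. Tamoxifen was given at 75 mg/kg on 5 days in a row once tumours were established, and tissue was collected 10 days after the last dose. Whether the WT and CDK18KO animals carried Cre-ERT2 or got tamoxifen, and the animals' strain and age, are not given in the labels. Each library is taken as 1 tumour of 1 animal, as the series describes its replicates. Messenger RNA was read from its 3′ ends.

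CDK16 and CDK18 are PCTAIRE kinases, relatives of the cyclin-dependent kinases that work outside the core cell cycle. A liver tumour holds malignant cells, residual or differentiated hepatocyte-like cells, macrophages, endothelium and stellate cells, and hepatocytes carry abundant messenger RNA for plasma proteins, urea cycle enzymes and bile acid synthesis. A tumour piece with more hepatocyte RNA therefore has a smaller share of all other RNA. In bulk tissue, fewer cells of a type and less RNA per cell cannot be told apart. C1r and C1s, which recur below, are the serine proteases of the first complement component. Both are made largely by hepatocytes, and the mouse genome holds a duplicated pair of each.

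The hepatocyte list mean was 2.58, 6.83, 3.08, 3.74 and 5.77 log2 CPM in WT 1 to 5, and 6.02, 5.00 and 5.59 in CDK18KO 1, CDK18KO 3 and DKO 3. The matched mean was 5.54 ± 0.51 (SD, n = 3) against 4.40 ± 1.82 in WT (n = 5), a gap of 1.14. All 3 matched libraries thus stood above WT 1, WT 3 and WT 4 and below WT 2, so content was alike only within a wide WT range. The highest library inside the range among knockouts was CDK18KO 1 at 6.02, and the nearest outside was CDK18KO 5 at 7.21. The 6 knockout libraries outside reached 9.70. The same 3 libraries lay inside by the list median, by summed CPM, by hepatocyte transcription factors and by bile acid genes, while Alb alone put 5 of 9 knockouts inside, adding CDK18KO 4 and CDK18KO 5. Alb, the gene of serum albumin, was at 382, 56.6 and 573 CPM in CDK18KO 1, CDK18KO 3 and DKO 3, and at 31.2 to 1094 CPM in WT.

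**Figure D1:**
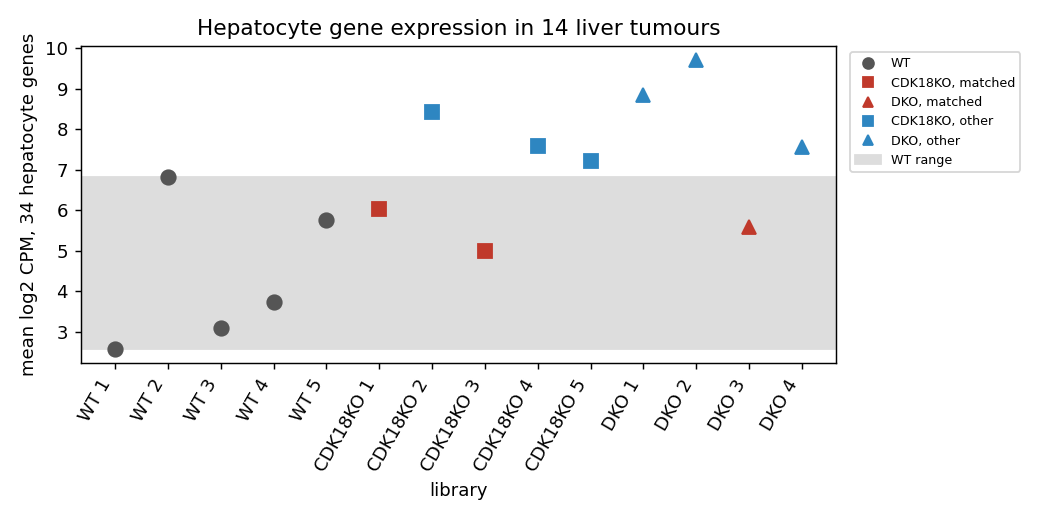
Mean log2 CPM of 34 hepatocyte genes (y axis) in each of 14 libraries (x axis), with the WT range of 2.58 to 6.83 shaded. Red symbols are the 3 matched knockout libraries, which lie inside the shaded band; blue symbols are the 6 other knockouts, all above it.

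Total counts ran from 1442417 in WT 5 to 6068209 in WT 2, and 13689 of 77981 genes passed the filter on low counts over the 8 libraries. Y-linked genes summed to 345 CPM in CDK18KO 1, 202 in WT 3 and 778 in WT 5. They summed to 32.6 CPM or less in the other libraries, so Y-linked expression was mixed within both classes. The X-linked transcript Xist ran the other way, at 63.9 CPM in CDK18KO 1, 31.7 in WT 3 and 110 in WT 5. It was at 436 CPM or more in the other libraries. Male-like and female-like libraries thus stood in both classes, and what part sex has in the differences was not tested. No 2 replicates agreed within sampling noise.

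Cdk18 itself was scarcely counted. Its level was 2.20, 10.3, 5.19, 1.24 and 4.57 CPM in WT 1 to 5 and 1.85, 3.38 and 1.92 CPM in CDK18KO 1, CDK18KO 3 and DKO 3. The classes overlapped (log2 fold change -1.03, edgeR, SE 0.71, adjusted p = 0.997), and the change was -0.44 without WT 2. Cdk16 stood at 47.3, 58.6, 52.5, 39.5 and 44.9 CPM in WT 1 to 5, at 65.4 and 36.6 CPM in CDK18KO 1 and CDK18KO 3 and at 48.0 CPM in DKO 3. The library labelled DKO 3 thus lay inside the WT range for Cdk16, the gene its label says was deleted. The Cdk16 difference over the 3 matched libraries was 0.02 (SE 0.26, adjusted p = 0.997), and its sign changed with the library left out. In GRCm38, Cdk16 lies at chrX:20687954-20699880 and Cdk18 at chr1:132112237-132139684. The sources do not say which exons are deleted, so counts at the 3′ end of either gene check no label.

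With hepatocyte content matched, the smallest p-values belonged to ENSMUSG00000121749, a feature with no symbol that was higher in the matched knockouts, the Wnt inhibitor Nkd2, the complement genes C1rb and C1ra and the coat-colour gene nonagouti (a). None was called: 0 of 13689 genes (0%) passed the edgeR quasi-likelihood test at an adjusted p under 0.05, against 33 with DESeq2 and 0 with limma voom. At an unadjusted p under 0.05, 223 genes stood higher in the matched knockouts (1.63% of those tested) and 312 lower (2.28%). In 218 genes (1.59%) every matched library was above every WT library, and in 211 (1.54%) every one was below. Hepatocyte list members left out, the 24 genes with the smallest p were 8 higher and 16 lower in the matched knockouts. All had no overlap between the classes. DESeq2 called 20 of those 24. The 24 were picked by p from the same counts, so neither their separation nor the DESeq2 calls are separate evidence.

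The C1r and C1s cluster on chromosome 6 showed opposite levels in its duplicated genes. C1rb was at 2.20, 4.22, 2.02, 0 and 0.762 CPM in WT 1 to 5 and at 66.3, 67.6 and 39.3 CPM in CDK18KO 1, CDK18KO 3 and DKO 3. The classes were far apart, 1.84 ± 1.61 CPM (SD, n = 5) against 57.8 ± 16 (n = 3), and the log2 fold change was 4.76 (edgeR adjusted p = 0.129, SE 0.67). C1ra had 0 counts in all 3 matched libraries and 53, 812, 99, 33 and 65 counts in WT 1 to 5. With a floor of 3 counts over the class, C1ra was at least 188-fold lower in the matched knockouts (adjusted p = 0.396). C1s1 likewise had 0 counts in the 3 matched libraries and 9, 293, 32, 21 and 30 in WT 1 to 5, at least 68.3-fold lower (adjusted p = 0.471). WT 2 held most of the counts of both genes, and every other WT library also had some. Without WT 2 the bounds were 74.8-fold for C1ra and 27.5-fold for C1s1, and without any 1 matched library they were 125 to 127 and 45.2 to 46.1.

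The C1ra and C1rb transcripts are nearly the same, which limits how firmly counts are placed on either. The longest coding transcripts were identical at 98% of 2429 aligned bases, and the last 300 bases of C1rb, from which 3′ reads come, matched C1ra at 296 of 299 aligned bases. C1rb held 0 to 10.2% of the pair's summed counts in each WT library and 100% in each of the 3 matched libraries. The sum of the pair overlapped between classes, at 21.6, 115, 30.6, 10.3 and 50.3 CPM in WT 1 to 5 and 66.3, 67.6 and 39.3 CPM in the matched libraries. The classes were therefore apart in which gene of the pair was counted while the level of the pair overlapped. In the 6 other knockouts C1rb made up 99.1 to 99.8% of the pair, whose sum was 190 to 428 CPM.

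The windows around the starts of both genes are shown because the 2 genes were counted in opposite classes of tumour. RefSeq (GRCm38.p6) places C1ra's window at chr6:124512371-124512670 and C1rb's at chr6:124570180-124570479, both on the plus strand. Each runs from 250 bases before to 50 bases after the RefSeq start of the gene. GENCODE, used for the other positions, starts C1ra at 124512405 and C1rb at 124570294. By those starts most of each window lies inside the gene, as does the marked run of C1ra but not that of C1rb. Capitals mark the longest run of bases that the windows share, 34 bases long, which begins at base 152 of the C1ra window and at base 1 of the C1rb window.
C1ra: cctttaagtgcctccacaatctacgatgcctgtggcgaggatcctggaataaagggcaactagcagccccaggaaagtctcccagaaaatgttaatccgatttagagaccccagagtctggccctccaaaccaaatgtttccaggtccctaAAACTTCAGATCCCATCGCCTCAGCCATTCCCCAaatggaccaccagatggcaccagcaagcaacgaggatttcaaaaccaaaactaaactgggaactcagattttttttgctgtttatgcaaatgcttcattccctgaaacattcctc
C1rb: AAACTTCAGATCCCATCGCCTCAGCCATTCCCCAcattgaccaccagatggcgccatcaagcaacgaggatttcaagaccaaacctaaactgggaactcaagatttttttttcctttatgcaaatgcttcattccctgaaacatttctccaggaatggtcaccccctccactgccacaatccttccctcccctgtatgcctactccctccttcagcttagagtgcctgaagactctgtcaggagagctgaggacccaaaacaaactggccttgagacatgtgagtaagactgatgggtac
Over the 148 bases that could be aligned between the windows, 139 were identical (93.9%). The shared stretch sits just past the middle of the C1ra window and at the beginning of the C1rb window, since the annotated starts differ relative to it.

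The remaining members of the cluster were counted less evenly. C1rl, a C1r-like protease gene next to C1ra, was at 2.20, 43.1, 3.75, 3.11 and 6.09 CPM in WT 1 to 5 and 8.64, 11.1 and 4.80 CPM in the matched libraries. Its classes overlapped (-0.59, SE 0.96, adjusted p = 0.997), and without WT 2 the difference was 1.15. C1s2, the second C1s gene, was too low to test: WT 2 had 10 counts and the other WT libraries 0, against 3, 1 and 2 counts in CDK18KO 1, CDK18KO 3 and DKO 3. C1ra, C1s1 and C1rb lie within chr6:124512405-124581171, and chromosome 6 held 5 of the 21 smallest-p genes that have a position, against 5.30% of the tested genes with one. The others on chromosome 6 were Rps4l and Prrt3. The chromosome was singled out after these counts were seen, and C1ra, C1s1 and C1rb are neighbours, so its share is no separate evidence.

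Nonagouti (a), which encodes the agouti melanocortin antagonist, was at 38.5, 38.5, 72.4, 137 and 38.1 CPM in WT 1 to 5 and at 5.55, 4.00 and 4.48 CPM in the matched knockouts. No matched library came near WT, and edgeR gave a log2 fold change of -3.80 (SE 0.56, adjusted p = 0.139). The gene lies at chr2:154791402-155051012. Nkd2, an inhibitor of Wnt signalling that acts on Dishevelled, was at 63.8, 108, 145, 130 and 96.7 CPM in WT 1 to 5 and 25.9, 17.2 and 18.9 CPM in the matched knockouts. Its classes were 109 ± 31.3 and 20.7 ± 4.62 CPM (-2.41, SE 0.33, adjusted p = 0.129). In the 6 other knockouts nonagouti was at 0 to 1.38 CPM and Nkd2 at 1.65 to 22.3 CPM, both below every WT library. Since no strain is given for either class, a difference of strain and the knockout cannot be told apart in any gene compared here. This includes nonagouti and the C1r and C1s genes.

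Other genes of known function stood lower in the matched knockouts. Prim2, the large subunit of DNA primase, varied little among the matched libraries, at 21.3, 21.2, 29.1, 22.4 and 22.8 CPM in WT 1 to 5 and 8.64, 8.30 and 8.31 CPM in the matched libraries (-1.48, SE 0.29, adjusted p = 0.471). Apod, the lipid-binding apolipoprotein D, was at 43.7, 37.4, 58.0, 59.7 and 12.9 CPM in WT 1 to 5 and 2.16, 4.61 and 7.35 CPM in the matched libraries (-3.18, SE 0.58, adjusted p = 0.396). The AP-2 transcription factor gene Tfap2c was at 31.2, 9.39, 29.7, 30.2 and 66.3 CPM against 2.78, 1.23 and 0 CPM (-4.58, SE 0.88, adjusted p = 0.462). For each of the 3 genes the highest matched library stayed below the lowest WT library. Crabp1, a retinoic acid binding protein gene, was at 5.44 to 94.2 CPM in WT and 1.54 to 4.00 CPM in the matched libraries. The imprinted hepatoblast gene Dlk1 was at 59.1 to 276 CPM in WT and 22.4 to 51.2 CPM in the matched libraries (-2.16, SE 0.49, adjusted p = 0.753). Dlk1 differed from the preceding genes outside the matched set, where the 6 other knockouts ran from 1.58 to 513 CPM, above and below WT.

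Several low or poorly placed features made up the rest of the lower genes. Rps4l, annotated as a processed pseudogene, had 13 counts in the matched libraries and 1887 in WT, a ratio of 77.3 (95% counting interval 45.1 to 145), or 33.9 without WT 2. Its level is uncertain where its reads cannot be told from those of the ribosomal protein gene it was copied from. Gm10503 and Gm18025 had 0 counts in the matched libraries and 62 and 66 in WT, at least 11-fold and 11.7-fold lower, or 7.29-fold and 7.76-fold without CDK18KO 3, with like values without CDK18KO 1 or DKO 3. Both also had 0 counts in each of the 6 other knockouts. Gm48368 had 2 counts against 84, a ratio of 22.4 (6.00 to 188). Gm18025 and Gm48368 are also processed pseudogenes in the annotation. Gm10503, Gm18025 and Gm48368 passed the filter on low counts only through WT libraries, so the filter set their direction. The zinc finger gene Zfp991 and the transcripts 6430590A07Rik and Gm17494 completed this set, with log2 fold changes of -2.64, -4.35 and -3.40.

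Among the 8 higher genes, the smallest p belonged to a feature listed only by its Ensembl identifier. ENSMUSG00000121749 was at 7.70, 13.5, 14.4, 12.1 and 9.90 CPM in WT 1 to 5 and 141, 51.0 and 108 CPM in the matched knockouts (3.08, SE 0.35, edgeR adjusted p = 0.0554). It passed without CDK18KO 3 (adjusted p = 0.0141), the only library whose removal gave a call. In the 6 other knockouts it was at 8.85 to 48.6 CPM. Zranb3, a helicase that remodels stalled replication forks, was at 37.4, 45.0, 51.3, 28.9 and 61.7 CPM in WT 1 to 5 and 133, 96.6 and 118 CPM in the matched libraries (1.36, SE 0.27, adjusted p = 0.471). The other 6 knockouts had 8.75 to 22.7 CPM of Zranb3, below every WT library, so the matched libraries were the highest of the 14 and the other knockouts the lowest. The same order was seen for ENSMUSG00000126185, a second feature with no symbol, at 29.9 to 48.4 CPM in WT, 72.6 to 106 CPM in the matched libraries and 0 to 2.20 CPM in the others (1.09, SE 0.24, adjusted p = 0.679).

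**Figure D2:**
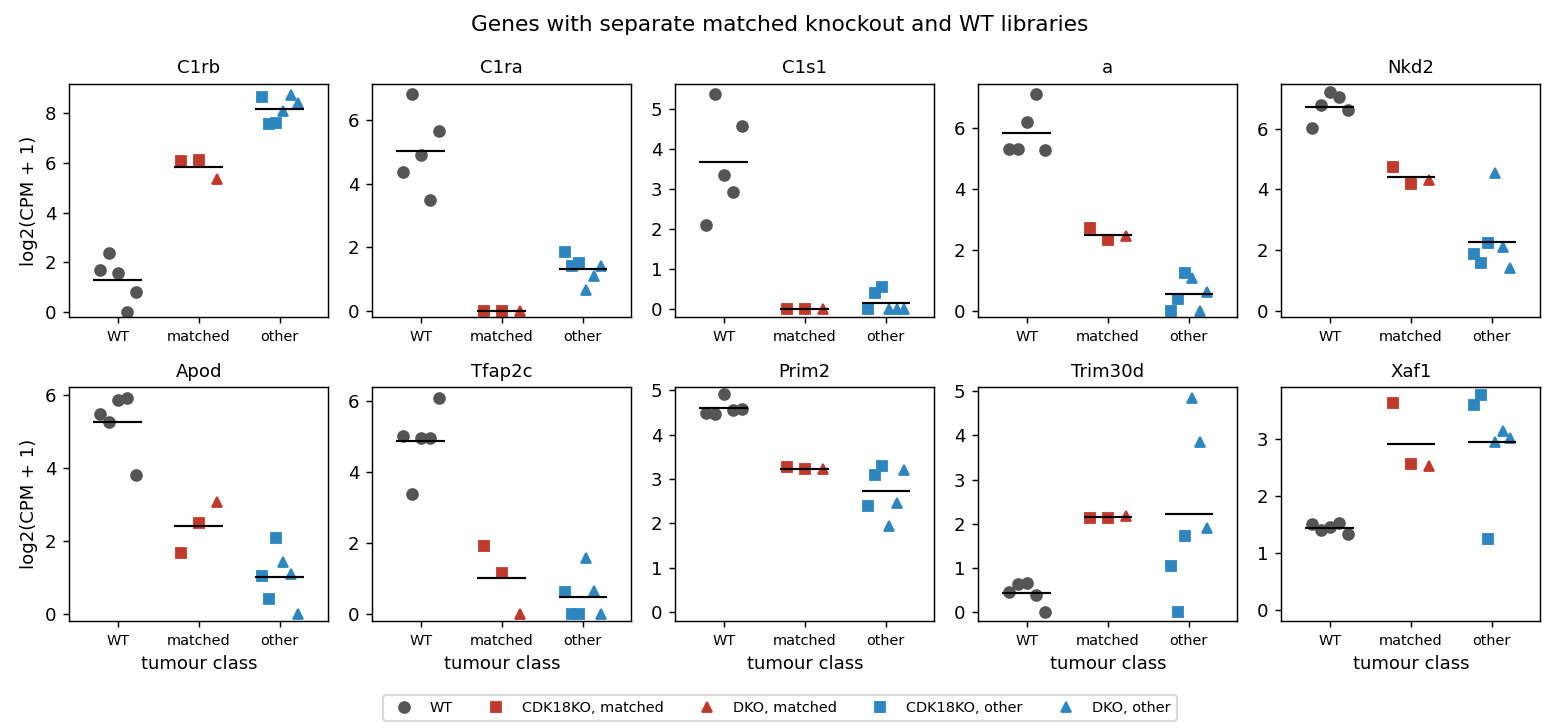
Level of 10 genes as log2(CPM + 1) (y axes, scaled per gene) in WT, matched and other knockout libraries; each point is 1 library and bars are class means of the plotted values. C1rb is high and C1ra and C1s1 are at 0 in the 3 matched libraries, and nonagouti (a), Nkd2, Apod, Tfap2c and Prim2 have all 3 matched libraries below all 5 WT libraries.

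The remaining higher genes were low in WT. Slfn9, a Schlafen family gene, was at 2.49 to 14.3 CPM in WT and 53.4, 40.0 and 31.3 CPM in CDK18KO 1, CDK18KO 3 and DKO 3 (2.19, SE 0.48, adjusted p = 0.679). Prrt3 was at 0 to 1.52 CPM in WT and 5.55, 7.99 and 35.8 CPM in the matched libraries, the highest being DKO 3 (4.78, SE 0.89, adjusted p = 0.396), and the difference was 3.49 without DKO 3. Samd12 was at 0.762 to 1.47 CPM in WT and 4.30 to 5.75 CPM in the matched libraries. Prrt3 and Samd12 passed the filter on low counts only through the matched libraries, so the filter set their direction. Trim30d is described with the interferon genes.

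Near the targeted gene, 86 other tested genes lay within 5 Mb of Cdk18. In 3 of them (3.49%) every matched library was above WT, beside 1.59% of all tested genes, and in 3 (3.49%) every one was below, beside 1.54%. The higher genes were Zranb3, Slc41a1 and Nav1 and the lower genes Platr23, Ipo9 and Timm17a, and 0 of the 86 were called. Zranb3 lies at chr1:127954184-128103047. Slc41a1, a magnesium transporter gene at chr1:131827493-131848865, was at 21.2 to 30.6 CPM in WT and 37.6, 56.3 and 92.1 CPM in CDK18KO 1, CDK18KO 3 and DKO 3 (1.29, SE 0.31, adjusted p = 0.789). Zranb3 was named for its small p in these same libraries, and the other 5 were singled out after their values were seen. None was therefore chosen apart from its values.

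Medians of liver function lists were nearer to 0 in the matched comparison than with all 9 knockouts, a direction set by choosing libraries on their hepatocyte level. The median log2 fold change over all tested genes was -0.03 with matching and -0.03 with all 9 knockouts. The 34 hepatocyte genes, which chose the libraries, had a median of 0.37 in the matched comparison, with 23 higher and 11 lower, and 2.91 with all 9 knockouts. Bile acid synthesis and transport stood at 0.85 (14 of 15 tested genes higher) and 3.28, hepatocyte transcription factors at 0.20 and 1.99, fatty acid oxidation at 0.26 and 1.62, and the acute phase response at 0.22 and 2.47. Cholesterol and fatty acid synthesis had a median of -0.14 in the matched comparison and 1.26 in the other. The comparisons share the 5 WT libraries and 3 of the knockouts, so they are given side by side and not as 2 separate results. A further fit used WT 2 and WT 5 alone, whose hepatocyte means (6.83 and 5.77) are nearest to the matched mean of 5.54. Both lie above that mean, and WT 2 above all 3 matched libraries, while the mean of all 5 WT libraries (4.40) lies below it. The hepatocyte gap thus has opposite signs in the 2 fits, and neither has equal levels. In that fit the hepatocyte median was -0.76, the bile acid median -0.18, the transcription factor median -0.45, the fatty acid oxidation median -0.21 and the acute phase median -0.45. WT 2 had the highest hepatocyte mean of the WT libraries, and without it these 5 medians were 1.42, 2.36, 0.83, 0.53 and 1.76. The transcription factor median was -0.62 without CDK18KO 3.

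**Figure D3:**
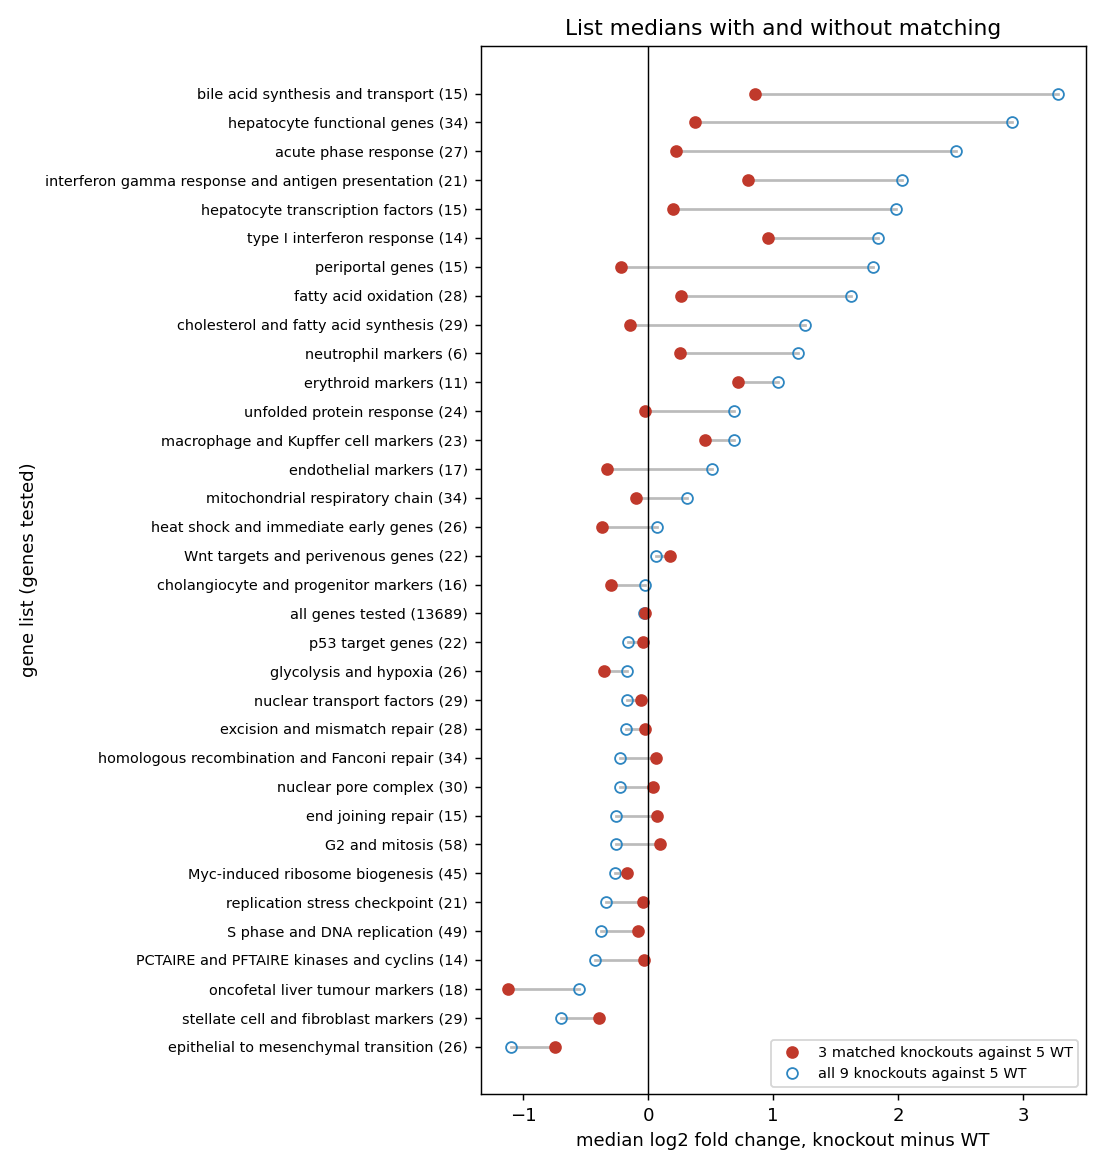
Median log2 fold change, knockout minus WT (x axis), for each gene list and for all genes tested (y axis, tested genes in brackets). Filled red points are the 3 matched knockouts and open blue points all 9 knockouts, both against the same 5 WT libraries; the hepatocyte and bile acid lists are at 2.91 and 3.28 with all knockouts and at 0.37 and 0.85 with matching, while epithelial to mesenchymal transition and stellate lists stay below 0 in both.

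Among single liver genes, Prox1 stood apart. Prox1, a homeobox factor of hepatoblasts and hepatocytes, was at 76.7, 132, 41.0, 65.3 and 124 CPM in WT 1 to 5 and 261, 569 and 212 CPM in the matched knockouts. All matched libraries were above WT (log2 difference 1.98), a value given without a test because the list tracks the measure that chose the libraries. Of the hepatocyte genes that chose the libraries, Apob, the apolipoprotein of very low density lipoprotein, was at 2.31 to 153 CPM in WT and 150.2 to 310 CPM in the matched libraries. Cps1, the first enzyme of the urea cycle, was at 7.50 to 133 and 66.3 to 258 CPM, and the cytochrome P450 gene Cyp2c29 at 2.20 to 56.6 and 9.22 to 78.7 CPM, all 3 with overlap. Ppara and Nr5a2, nuclear receptors of lipid and bile acid metabolism, had differences of 1.24 and 1.54 with overlapping classes. Of bile acid genes, Amacr was at 4.66 to 23.7 CPM in WT and 15.1 to 39.8 CPM in the matched libraries, Scp2 at 59.4 to 137 and 93.7 to 219 CPM, and Baat, which joins bile acids to taurine, at 0.288 to 9.25 and 6.46 to 13.3 CPM. The β-oxidation genes Hadhb and Acadm differed by 0.83 and 0.80, and Etfdh by 0.61. Sqle, the squalene epoxidase of cholesterol synthesis, was at 94.4 to 134 CPM in WT and 86.4, 58.7 and 86.3 CPM in the matched libraries (-0.57, SE 0.23, adjusted p = 0.997). Mvd (-0.62) and Hsd17b7 (0.53) of the same pathway had overlapping classes.

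Acute phase serum amyloid genes were uneven among the 3 matched libraries. Saa2 was at 1.47, 12.9, 1.44, 4.04 and 2.28 CPM in WT 1 to 5 and at 54.3, 6.76 and 107 CPM in CDK18KO 1, CDK18KO 3 and DKO 3. CDK18KO 3 fell within WT for Saa2, and the difference was 3.50 (SE 0.87, adjusted p = 0.838). Saa1 had 142, 16.3 and 222 CPM in the same 3 libraries and 5.87 to 74.1 CPM in WT. Saa1 and Saa2 are close copies, so their split is uncertain. Saa3, made by macrophages and other cells, differed by 1.46 with overlap.

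Interferon genes stood higher in the matched knockouts than in WT as a list. Of 31 type I interferon response genes, 14 had enough counts to test, 13 of those had a higher fitted level and in 4 the classes did not overlap, beside 1.59% of all tested genes. Their median log2 fold change was 0.96, against -0.03 over all genes, and 0 were called. Trim30d and Xaf1, both without overlap, passed the filter on low counts only through the matched libraries. Their direction was thus set by the filter, and the counts and median of the tested genes lean towards higher. Summed, the list was at 198, 274, 150, 123 and 262 CPM in WT 1 to 5 and 364, 380 and 277 CPM in CDK18KO 1, CDK18KO 3 and DKO 3. Every matched library lay above every WT library, DKO 3 by little. In the 6 other knockouts the sum was 464 to 978 CPM. Against WT 2 and WT 5 alone the median was 0.48.

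Xaf1, an interferon-induced antagonist of the apoptosis inhibitor XIAP, was at 1.83, 1.63, 1.73, 1.87 and 1.52 CPM in WT 1 to 5 and 11.4, 4.92 and 4.80 CPM in the matched libraries (1.99, SE 0.47, edgeR adjusted p = 0.783). Trim30d was at 0 to 0.577 CPM in WT and 3.39, 3.38 and 3.52 CPM in the matched libraries (2.92, SE 0.60, adjusted p = 0.510), from 8 and 33 counts. Irf9, a subunit of the transcription factor that interferon α and β activate, was at 8.71 to 15.2 CPM in WT and 31.2, 21.5 and 16.3 CPM in the matched libraries (0.91, SE 0.34, adjusted p = 0.997). Rigi, a sensor of foreign RNA, was at 1.87 to 13.7 CPM in WT and 27.1, 16 and 15.3 CPM in the matched libraries (1.13). In all 4 genes the matched libraries lay above WT, with CDK18KO 1 or DKO 3 highest.

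Interferon γ and antigen presentation genes had a median of 0.80, with 20 of 21 tested genes of 36 higher and 0 called. In 1 of the 21, the class I gene H2-D1, the classes did not overlap, beside 1.59% of all tested genes. Without WT 2 the median was 1.35, and against WT 2 and WT 5 alone 0.28. The summed list overlapped between classes, at 252 to 860 CPM in WT and 1003, 751 and 852 CPM in CDK18KO 1, CDK18KO 3 and DKO 3. Tap2, a subunit of the peptide transporter, was at 1.55 to 7.62 CPM in WT and 13.6, 17.5 and 6.39 CPM in the matched libraries (1.50, SE 0.57, adjusted p = 0.997). The class II genes H2-Ab1 and Cd74 differed by 1.48 and 1.71, with DKO 3 at 3.52 CPM of H2-Ab1 and CDK18KO 3 at 4.30 CPM of Cd74, inside WT.

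Immune cell markers were read beside the interferon genes. Macrophage and Kupffer cell markers summed to 249 to 661 CPM in WT and 789, 461 and 431 CPM in CDK18KO 1, CDK18KO 3 and DKO 3, with a median of 0.45 (17 of 23 tested higher), or 0.03 without CDK18KO 1. Ccr2, a monocyte receptor gene, was at 35.5 CPM in CDK18KO 1, against 4.00 and 8.95 CPM in CDK18KO 3 and DKO 3 and 1.10 to 5.72 CPM in WT. The lysosomal and pore-forming macrophage gene Mpeg1 was at 4.40 to 14.6 CPM in WT and 26.5, 17.2 and 18.5 CPM in the matched libraries (0.98, SE 0.40, adjusted p = 0.997), and the iron exporter Slc40a1 at 13.2 to 31.2 and 34.7 to 52.8 CPM. Of 36 T and NK cell markers only 4 had enough counts to test, as had 3 of 23 markers of B and plasma cells and 6 of 22 of neutrophils. T and NK markers summed to 96.4 to 142 CPM in WT and 84.3 to 136 CPM in the matched libraries. What part macrophage content has in the interferon values was not tested.

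Erythroid genes rested on 1 library. The list median was 0.71, and -0.54 without DKO 3. Hba-a2, a haemoglobin α gene, was at 4.35 to 77.6 CPM in WT, 79.3 and 31.1 CPM in CDK18KO 1 and CDK18KO 3 and 515 CPM in DKO 3. The red cell anion exchanger gene Slc4a1 was at 38.0 CPM in DKO 3 and below 2 CPM in the 2 CDK18KO libraries.

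Most mesenchymal and stromal genes had lower fitted levels in the matched knockouts, while the summed levels of both lists overlapped WT. In the epithelial to mesenchymal transition list 22 of 26 tested genes had a lower fitted level, 5 had no overlap between classes, beside 1.54% of all tested genes, and 0 were called. The median was -0.74, and -1.24 without CDK18KO 1. Summed over the list, the classes overlapped, at 1763 to 3496 CPM in WT and 2260.1, 1062 and 2270 CPM in CDK18KO 1, CDK18KO 3 and DKO 3, so the total did not set the classes apart.

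The 5 genes without overlap were Ccn1, Ccn2, Mmp9, S100a4 and Tgfb1. Ccn1, a secreted matricellular protein gene, was at 24.6, 21.8, 36.1, 35.5 and 92.1 CPM in WT 1 to 5 and 10.8, 11.4 and 20.1 CPM in the matched libraries (-1.56, SE 0.51, edgeR adjusted p = 0.997). Ccn2, its relative known as connective tissue growth factor, was at 58.3, 43.8, 40.4, 40.1 and 108 CPM against 26.2, 8.61 and 33.2 CPM (-1.36, SE 0.48, adjusted p = 0.997). DKO 3 came nearest to WT for both. The gelatinase gene Mmp9 was at 7.77 to 23.5 CPM in WT and 2.16, 0 and 7.35 CPM in the matched libraries, S100a4 at 28.0 to 82.9 and 5.23 to 25.9 CPM, and the growth factor gene Tgfb1 at 3.46 to 6.85 and 1.28 to 3.38 CPM. Twist1, a transcription factor of mesenchymal cells, ranged in WT itself from 1.36 CPM in WT 2 to 200 CPM in WT 4, and was at 0.926, 2.15 and 4.80 CPM in the matched libraries. Its classes overlapped (-4.85, SE 1.51, adjusted p = 0.997).

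The median of stellate cell and fibroblast markers was -0.40, with 25 of 29 tested genes lower and 0 called. In 1 of the 29, Col6a3, the classes did not overlap, beside 1.54% of all tested genes. The median was -0.94 without CDK18KO 1 and -0.20 without CDK18KO 3. Summed marker levels were 1926, 1584, 1487, 2091 and 3193 CPM in WT 1 to 5 and 2326, 587 and 1776 CPM in CDK18KO 1, CDK18KO 3 and DKO 3, so CDK18KO 3 alone was below WT. Col6a3, a chain of collagen VI, was at 131, 34.3, 57.4, 55.7 and 65.5 CPM in WT 1 to 5 and 26.5, 8.30 and 25.6 CPM in the matched libraries (-1.78, SE 0.50, adjusted p = 0.997). Every matched library was below every WT library for Col6a3. Pdgfrb, the receptor of stellate cells and pericytes, was at 8.84 to 37.8 CPM in WT and 6.15 to 10.2 CPM in the matched libraries, and the matrix gene Postn at 7.76 to 95.2 and 3.38 to 15.0 CPM, both with overlap. What part stromal content has in the mesenchymal values was not tested.

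Oncofetal liver tumour markers, genes of fetal liver that return in tumours, had a median of -1.12, with 15 of 18 tested genes lower and 0 called. In 1 of the 18, Dlk1, the classes did not overlap, beside 1.54% of all tested genes. With all 9 knockouts the median was -0.55. Igf2bp1, an RNA-binding protein gene of fetal tissue, was at 2.18 to 255 CPM in WT, the highest being WT 4, and 0, 6.15 and 0.639 CPM in the matched libraries (-4.72, SE 1.73, adjusted p = 0.997). The difference was -2.37 without WT 4 and -7.45 without CDK18KO 3. The imprinted zinc finger gene Plagl1 was at 3.95 to 23.9 CPM in WT and 2.46 to 4.80 CPM in the matched libraries. Summed, the list overlapped, at 1205 to 3634 CPM in WT and 1195 to 3379 CPM in the matched libraries.

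**Figure D4:**
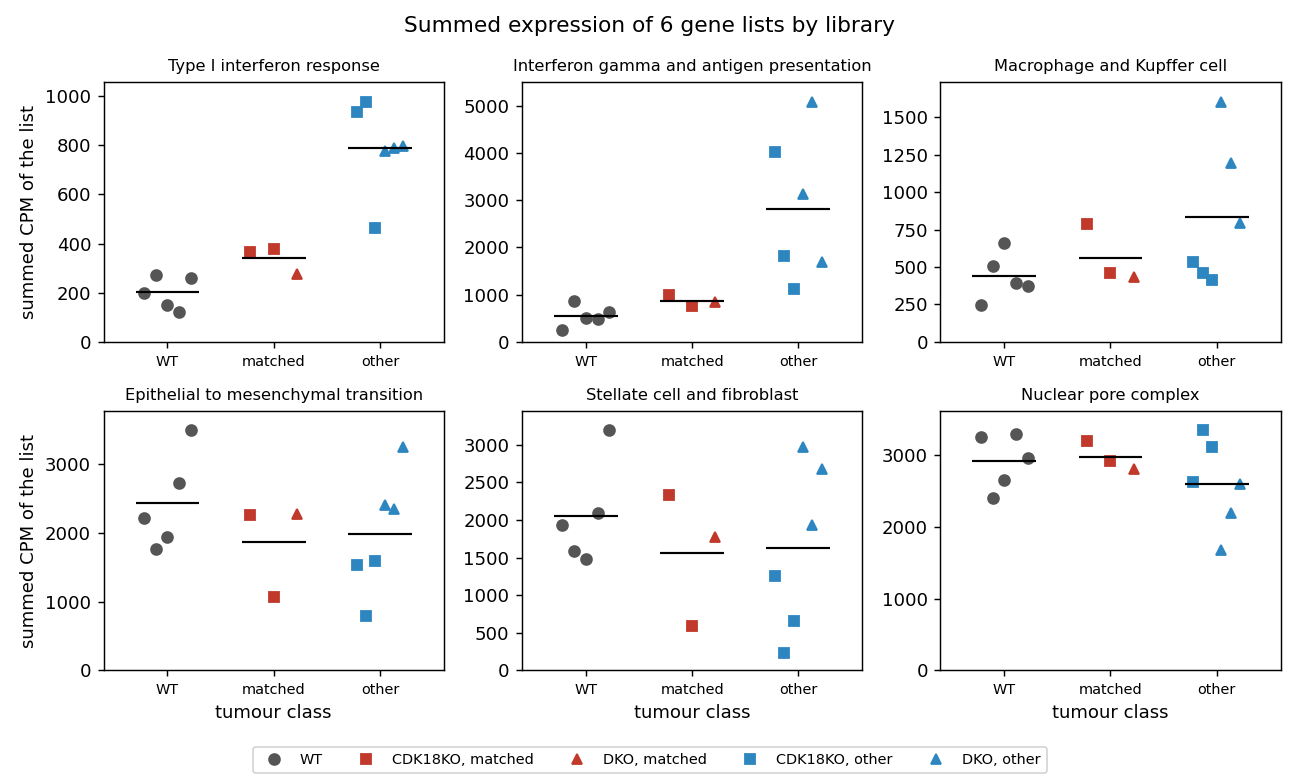
Summed CPM of 6 gene lists (y axes, from 0) in WT, matched and other knockout libraries; each point is 1 library and bars are class means. Type I interferon genes lie at 277 to 380 CPM in the 3 matched libraries, above the 5 WT libraries, while for the other 5 lists the matched and WT points overlap.

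Nuclear pore and DNA repair genes, named in the title of the series, had list medians near 0 in the matched comparison. The nuclear pore complex list had a median of 0.04 with matching and -0.22 with all 9 knockouts. With matching, 17 of its 30 tested genes were higher and 13 lower. At an unadjusted p under 0.05 there were 0, beside 1.63% of all tested genes higher and 2.28% lower. Without overlap there were also 0, beside 1.59% and 1.54%. Such shares amount to few or no genes in a list of 30. Summed, it was at 2406 to 3284 CPM in WT and 3187, 2909 and 2799.7 CPM in CDK18KO 1, CDK18KO 3 and DKO 3. The sign of the matched median changed when WT 1, WT 2, WT 5 or CDK18KO 1 was left out, within -0.04 to 0.04. Gle1, an export factor at the pore, was at 37.6 to 75.6 CPM in WT and 34.8 to 52.9 CPM in the matched libraries (-0.47, SE 0.31, adjusted p = 0.997). Nup54, of the central channel, differed by 0.53 and the membrane nucleoporin Pom121 by -0.31, both with overlap.

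Repair lists were as near to 0. Homologous recombination and Fanconi repair had a median of 0.06, end joining 0.07, excision and mismatch repair -0.02 and the replication stress checkpoint -0.04, against -0.22, -0.25, -0.18 and -0.34 with all 9 knockouts. None of these 4 lists had a gene at an unadjusted p under 0.05 in the matched comparison or a gene without overlap. Over all tested genes, 1.63% were higher and 2.28% lower at that p. Those without overlap were 1.59% and 1.54%, so lists of this length would hold few such genes. S phase and DNA replication genes had a median of -0.08 (-0.37 with all 9), with 23 of 49 higher and 26 lower. Prim2 was the only one of the 49 at an unadjusted p under 0.05. The classes did not overlap for Prim2, lower in the matched libraries, or for Prim1, the small subunit of primase, at 28.2 to 40.1 CPM in WT and 40.9 to 43.5 CPM in the matched libraries (0.34, SE 0.23, adjusted p = 0.997). That is 1 of 49 in each direction, beside 1.59% of all tested genes higher and 1.54% lower. The medians of homologous recombination, end joining, excision repair and S phase genes changed sign with 1 library left out, within -0.19 to 0.16. Chaf1b, of the chromatin assembly factor, was at 11.4 to 27.4 CPM in WT and 6.07 to 15.7 CPM in the matched libraries (-0.84), and Pola2, of DNA polymerase α, at 21.3 to 33.0 and 17.6 to 21.5 CPM (-0.50). G2 and mitosis genes had 0.09 against -0.26 with all 9 knockouts, and Myc-induced ribosome biogenesis -0.17 against -0.27. A difference that misses the threshold with 3 and 5 libraries does not show these genes to be unchanged.

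Further lists gave values of like size. Glycolysis and hypoxia had a median of -0.35 (23 of 26 lower) and heat shock and immediate early genes -0.37 (22 of 26 lower), both with overlapping sums. Periportal genes had -0.22, or 0.24 without WT 2, Wnt targets and perivenous genes 0.18, the unfolded protein response -0.03, the mitochondrial respiratory chain -0.10 and p53 target genes -0.05. Endothelial markers had -0.33, or 0.06 without CDK18KO 3, and cholangiocyte and progenitor markers -0.30, or -1.31 without DKO 3. With 1 library left out the sign also changed for the respiratory chain (0.03 without WT 3), the unfolded protein response (0.02 without WT 2) and p53 targets (0.05 without WT 4). In each of these lists 0 genes were called.

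When hepatocyte level was taken as a covariate over all 14 libraries in place of matching, 2 genes were called. C1ra had a log2 difference of -7.14 (edgeR adjusted p = 0.000622) and C1rb 4.92 (adjusted p = 0.0422). All 9 knockouts without matching or covariate gave 11 calls. These fits and the matched comparison share the WT libraries and 3 knockouts.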

How the data were processed

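The authors' deposited table gives raw counts per gene for 14 libraries, made per the labels' protocols with a stranded 3′ kit with molecular identifiers. The submitters' processing notes name STAR 2.7.11a, HTSeq 1.99.2, UMI-tools 1.1.2, FastQC and DESeq2 1.32.0, with builds mm10 and GRCh38. No source says whether identifiers were collapsed, so counting intervals cover counting error only.

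The 8 libraries were fitted with edgeR 4.0.16 in R 4.3.3 (quasi-likelihood F test, TMM, filter by class, Benjamini-Hochberg over 13689 genes, two-sided), 3 matched knockouts as 1 class lacking Cdk18 against 5 WT. The common biological coefficient of variation was 0.465. Genes kept held 98.9% of counts. List means are log2 CPM with a prior count of 2. Bounds use a floor of 3 counts over a class, and intervals are exact 95%. The fit was tested on simulated data with 50 genes changed at each of 4 sizes. It called 0 of the 50 changed 2-fold and 22 of those changed 4-fold. At 8-fold and 16-fold it called 41 and 42, and 6 unchanged genes were called. Changes of 2-fold are therefore beyond the reach of this design. Apart from the changed genes, all simulated libraries shared the same mean per gene, with no difference in hepatocyte level. The real libraries spread widely in that level, so the shares called at 4-fold and above may be too high for them.

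The libraries, the 37 lists and the alternatives were chosen with earlier results of these data known. Named genes are Cdk16, Cdk18, the 24 smallest p (hepatocyte list members left out), up to 3 members of each list described and the C1r and C1s cluster; a gene this rule named is not reported here. Values of Slc41a1, Alb and Prim1 and of other list members without overlap were added after they were seen. Positions come from GENCODE M21 (GRCm38), found for 93.6% of tested genes. Alternatives were DESeq2 1.42.0, limma 3.58.1, other factors and filters, covariates, the replicate block and each library left out.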

Additional observations from a re-analysis of the deposited data

Results flagged for a closer look

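The 29 items checked were Cdk16, Cdk18, the 24 genes with the smallest p, the rest of the C1r and C1s cluster and the hepatocyte list mean. In 6 of them a WT library lay far from the other 4. The limit used flags about 1 in 20 groups of normally distributed values. CPM need not follow that distribution and most items were picked by p, so 6 of 29 cannot be read as more than chance. A gene counted in 1 WT library alone, as C1s2 was, is always flagged. WT 2 stood apart for C1rl, at 43.1 CPM against 6.09 CPM in the next library, and for C1s2, at 1.36 CPM against 0. WT 4 stood apart for Zfp991, at 33.9 CPM against 17.7, and for the retinoic acid binding gene Crabp1, at 94.2 CPM against 30.8. WT 3 was at 29.1 CPM of Prim2 against 22.8 in the next library, and WT 5 at 11.4 CPM of Gm18025 against 4.62. The matched knockouts lay below the lowest WT library for Zfp991, Prim2, Gm18025 and Crabp1. For Prim2 and Zfp991 the log2 fold change stayed between -1.56 and -1.39 and between -3.05 and -2.39 over the fits that left out 1 library.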

How the results depend on the processing

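With 0 genes called as reported, RLE factors, limma voom, the replicate block, the Y-linked covariate and the 2 alternatives chosen after seeing the data (WT 2 and WT 5 only, and no library of high Y-linked expression) also gave 0. DESeq2 called 33 genes, no filter 60 (of 35627 tested, with the median of all genes at -0.11), upper-quartile factors 1, the stricter filter 1, the hepatocyte covariate in the 8 libraries 2, 14 libraries in 3 classes 2, all 9 knockouts without matching 11 and with the hepatocyte covariate 2. Leaving out 1 library gave 0 to 1, the 1 without CDK18KO 3. Alb alone put 5 knockouts inside the WT hepatocyte range.

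Among 68 named genes, 19 of their alternative values changed sign, and the fold change of 26 genes moved by more than 1.5 times with 1 library left out. The difference in Cdk16 (0.02) was -0.0022 with the replicate block, -0.078 with the hepatocyte covariate in 8 libraries, -0.43 with all 9 knockouts, -0.19 with those and the covariate, -0.11 against WT 2 and WT 5 only, -0.22 without libraries of high Y-linked expression and -0.21 to 0.19 with 1 library left out (-0.03 without WT 1, -0.09 without WT 4, -0.05 without WT 5). C1rl (-0.59) was 0.29 with limma voom, 1.41 with the replicate block, 2.32 with all 9 knockouts and -0.89 to 1.15 with 1 library left out. Without DKO 3, Slc4a1 was at -1.66, the lowest of values up to 2.94 with 1 library left out. With all 9 knockouts, ENSMUSG00000126185 was at -0.46, Dlk1 at 0.0092, Sqle at 0.63 and Mvd at 0.60. The cause was not tested. Same-numbered libraries of the classes correlated at -0.34, -0.11 and -0.02, and differently numbered ones at -0.28 to 0.32. With 3 such pairs and a spread this wide, the correlations cannot show whether libraries of the classes were paired.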
